A study of Mus musculus with 7 samples.

Results

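The genes described here are the muscle-enriched ubiquitin ligases Trim63, Trim54, Trim55, Fbxo32, Fbxo40, Fbxo30 and Asb2, together with the transcription factors Foxo1 and Foxo3. They were taken by name, as every non-control probe whose gene name on the array was one of these 9 symbols. This gave 15 probes of the 56605 non-control probes on the array, and 9 genes of the 22971 genes tested. All 15 probes passed the filter on dim probes and were well above background on all 7 arrays.

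The study compared hearts of mice labelled as knocked out for Brg1 and Brm, the alternative motor subunits of the SWI/SNF chromatin remodelling complex, with wild type hearts, on 1-colour Agilent mouse expression arrays. The knockout group held 4 samples, numbered Mutant_175, Mutant_182, Mutant_187 and Mutant_188 and labelled as hearts of transgenic, tamoxifen-treated adult females. By the design text these mice were Brm (Smarca2) null, and Brg1 (Smarca4) was deleted by tamoxifen through Cre-ERT under a myosin heavy chain promoter (MHC), so that deletion was aimed at cardiomyocytes alone. The 3 wild type samples, Wild Type_181, Wild Type_183 and Wild Type_189, were labelled as hearts of non-transgenic adult females that also received tamoxifen. Whether the wild type mice carried Brm is not stated beyond the name of the group, and the sources used here do not give the time from tamoxifen to collection. The cell type was given as cardiomyocytes, but the source was heart and the RNA kit one for animal tissue, and no cell isolation was described. More samples are named in the design text than the 7 analysed here. Nothing but the sample number marks a sample as a separate animal, so the spread behind each p-value may be technical.

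Muscle ubiquitin ligases attach ubiquitin to contractile and metabolic proteins and so mark them for the proteasome. Trim63 (MuRF1) and Fbxo32 (atrogin-1) are the classical ligases of muscle wasting, and FoxO transcription factors, which Akt keeps out of the nucleus when insulin or IGF1 signals are strong, activate both genes in atrophying muscle. In heart, both ligases also limit hypertrophic growth and take part in the turnover of sarcomere proteins.

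The sequences of the regions just before the start sites of 3 of the ligases are shown because Trim63 and Trim54 are close relatives whose signals moved in opposite directions, and because Asb2 had the largest change of the 9 genes. Each runs over the 250 bases before a RefSeq start site, 5′ to 3′ in the direction of the gene, in assembly GRCm38.p6. Capitals mark matches to a FoxO core (GTAAACA on either strand), a TATA box (TATAAA) or a CArG box, the site read by serum response factor.
Trim63 promoter, chr4:134314870-134315119, plus strand: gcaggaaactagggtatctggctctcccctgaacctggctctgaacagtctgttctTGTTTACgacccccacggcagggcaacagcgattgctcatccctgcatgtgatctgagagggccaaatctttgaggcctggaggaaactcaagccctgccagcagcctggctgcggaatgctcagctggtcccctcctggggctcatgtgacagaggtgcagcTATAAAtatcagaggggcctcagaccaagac
Trim54 promoter, chr5:31116362-31116611, plus strand: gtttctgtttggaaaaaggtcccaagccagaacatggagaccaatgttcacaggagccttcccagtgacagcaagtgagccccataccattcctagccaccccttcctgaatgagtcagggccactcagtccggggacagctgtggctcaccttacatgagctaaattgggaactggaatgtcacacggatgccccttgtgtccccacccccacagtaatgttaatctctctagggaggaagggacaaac
Asb2 promoter, first of 2 windows, chr12:103356002-103356251, minus strand: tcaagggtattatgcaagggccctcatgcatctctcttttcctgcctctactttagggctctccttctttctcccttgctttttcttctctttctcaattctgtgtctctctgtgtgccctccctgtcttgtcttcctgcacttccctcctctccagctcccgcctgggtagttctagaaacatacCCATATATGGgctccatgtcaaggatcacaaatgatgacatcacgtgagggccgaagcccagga
Both strands were searched for these motifs, for the MEF2 site and for the E-box CANNTG, and E-boxes were not capitalised. Windows were found for 7 of the 9 members, 9 windows in all, and Trim55 and Fbxo32 were not among them. The Trim63 window held 1 FoxO core, in the reverse orientation and 194 bases before the start, and 1 TATA box 31 bases before it. The first Asb2 window held 1 CArG box 64 bases before the start. The first Fbxo40 window held 1 MEF2 match 101 bases before its start. No window of the members other than that of Trim63 held the FoxO core or the TATA box as spelled here, and none of the windows of Trim54, Fbxo30, Foxo1 and Foxo3 held a CArG or MEF2 match. Among all 32851 windows of this length, 3.17% held the FoxO core, 12.4% the TATA box, 1.47% the CArG box, 2.92% the MEF2 site and 66.2% an E-box. A match is a stretch of letters and no evidence of binding. The windows of Fbxo30 and Foxo3 were rich in G and C, at 80.4% and 76.4%, against a median of 52.4% over all windows.

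Probes of 4 members are shown because Asb2 and Fbxo30 had 1 probe each and the probes of Trim63 and of Foxo3 differed in direction. Not all probes of Trim63 and Foxo3 are shown. Each probe is 60 bases long and was read from the array's own annotation, with mm9 positions.
Trim63 probe A_55_P2106745, chr4:133881557-133881616, plus strand: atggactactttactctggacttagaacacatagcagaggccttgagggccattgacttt
Asb2 probe A_51_P115715, chr12:104559752-104559811, minus strand: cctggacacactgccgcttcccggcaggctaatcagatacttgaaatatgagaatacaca
Fbxo30 probe A_66_P123804, chr10:11011329-11015032, plus strand: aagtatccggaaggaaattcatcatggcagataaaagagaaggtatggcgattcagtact
Foxo3 probe A_55_P2735425, chr10:41994961-41995020, minus strand: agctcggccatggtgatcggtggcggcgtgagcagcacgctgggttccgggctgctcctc
Foxo3 probe A_55_P2506540, chr10:41916349-41916408, minus strand: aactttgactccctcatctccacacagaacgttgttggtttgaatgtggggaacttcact
The Fbxo30 probe is aligned to an interval longer than itself, as a probe that joins separate genomic blocks is. Trim55, Fbxo32, Trim54 and Asb2 were measured by 1 probe each, as was Fbxo30. Exon, intron and untranslated region were not assigned, since no mm9 annotation was used here.

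Signals below are relative signals, the processed signal divided by the array's 75th percentile, and for a gene with several kept probes the brightest on average stood for it. The divisor was the 75th percentile over probes, after the spots of a probe were averaged, and its values are not given here. Over all non-control spots, the 75th percentile was 1379, 1666, 1708 and 1245 on the knockout arrays, in the order of their numbers. It was 1079, 955 and 1049 on the wild type arrays. These spot values are not the divisors. Smarca4 had relative signals of 5.87, 10.3, 14.9 and 8.25 in knockout hearts and 34.7, 32.8 and 34.2 in wild type hearts, a log2 fold change of -1.87 (limma adjusted p = 0.0021 over probes). On this probe, the brightest for Smarca4, the signal was lower in every knockout heart, least so in Mutant_187 and most so in Mutant_175. It was still well above background in all 4. The dimmer Smarca4 probe A_65_P20042 was well above background on 0 of the 4 knockout arrays and on all 3 wild type arrays. Its lowest array was Mutant_188. Smarca2 had a log2 fold change of 0.08 (limma adjusted p = 0.60), and which part of it the null allele removes is not given here, so this probe does not check the label. All arrays lay on 1 slide and were read in 1 scan, but the knockout arrays filled slide row 2 and the wild type arrays slide row 1, so slide row and genotype cannot be told apart.

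Among the 9 genes, Trim63 and Fbxo30 rose in knockout hearts, Trim54 and Asb2 fell, and Trim55, Fbxo32, Fbxo40, Foxo1 and Foxo3 did not pass the test (limma, Benjamini-Hochberg adjusted p under 0.05 over all 22971 genes). Over all genes tested, 16.3% were called higher, 25.8% lower and 42.1% in either direction, so that 4 calls among 9 genes is near the background. The median log2 fold change was -0.30 over the 9 genes and -0.12 over all genes tested. It was -0.52 over the 7 ligases and -0.22 over the FoxO pair, neither of which was called at an adjusted or an unadjusted p under 0.05. The 2 groups did not overlap for the 4 called genes, against 51.1% of all genes without overlap, 19.6% higher in knockout hearts and 31.6% lower. Of the 9 genes, 2 were called with at least a 2-fold change, Trim54 and Asb2, against 18.5% of all genes.

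**Figure D1:**
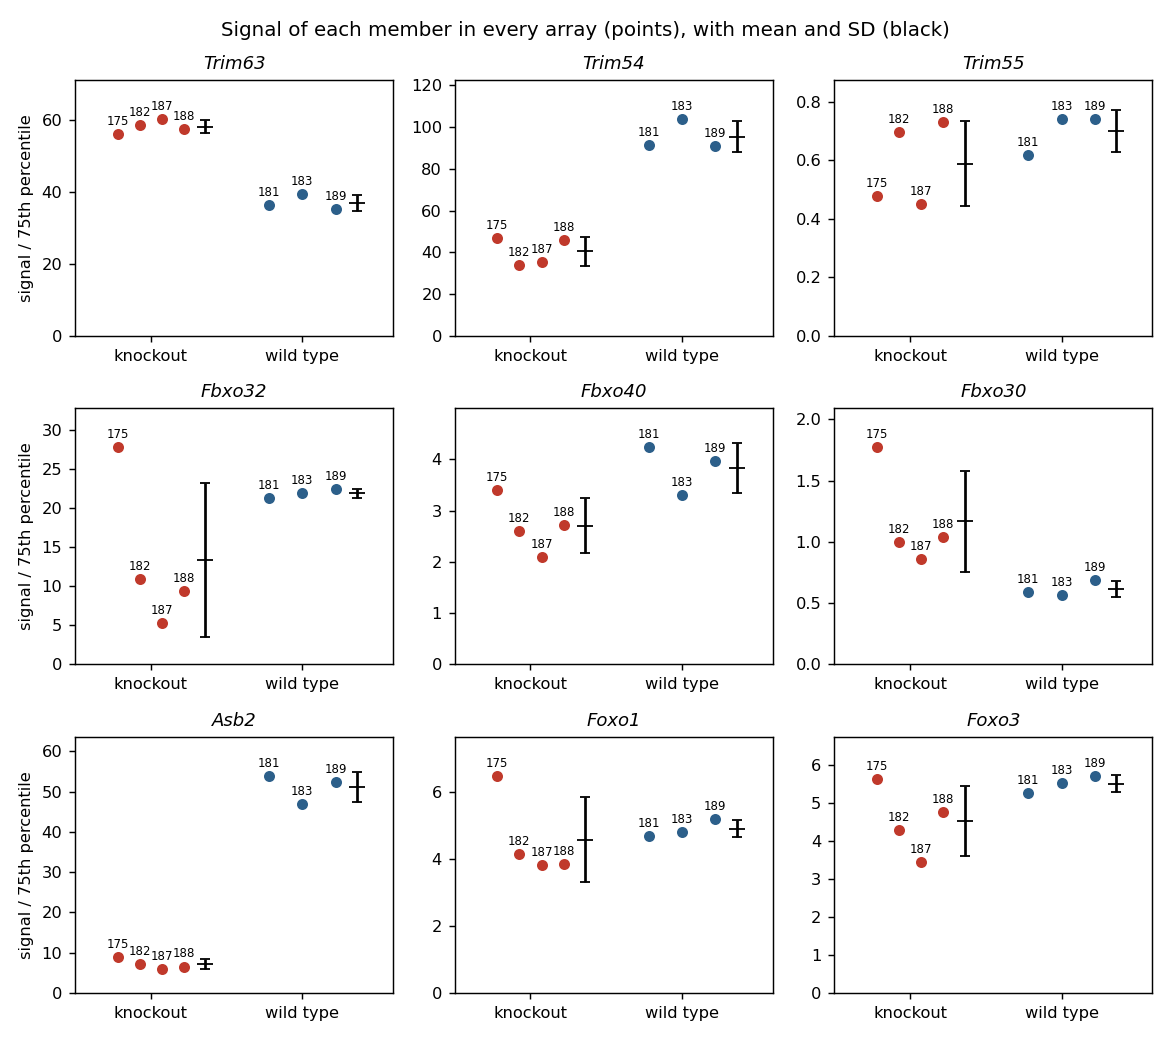
Relative signal (processed signal divided by the array's 75th percentile, linear axis from 0) of the 9 genes in every array, with knockout hearts in red on the left and wild type hearts in blue on the right, labelled by sample number, and mean and SD in black. The groups are apart for Trim63, Trim54, Fbxo30 and Asb2, and Mutant_175 is the highest knockout array for 7 of the 9 genes.

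Trim63, Trim54 and Trim55 encode MuRF1, MuRF3 and MuRF2, RING-type ligases that sit at the sarcomere and bind titin or microtubules and each other. Trim63 had relative signals of 56.1, 58.4, 60.2 and 57.5 in knockout hearts and 36.4, 39.5 and 35.1 in wild type hearts. The knockout arrays lay close together and all above the wild type arrays. The mean was 58.1 ± 1.76 in knockout hearts (SD, n = 4) and 37.0 ± 2.24 in wild type hearts (SD, n = 3). Trim63 rose 1.57-fold, a log2 fold change of 0.65 (SE 0.10, limma adjusted p = 0.0021).

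Trim54 had relative signals of 47.0, 33.8, 35.3 and 46.0 in knockout hearts and 91.1, 103.9 and 91.0 in wild type hearts. The knockout arrays formed a low and a less low pair, both far below the wild type arrays. The log2 fold change was -1.25 (SE 0.16, limma adjusted p = 0.00086), a 2.37-fold lower signal in knockout hearts. Trim55 had relative signals of 0.479, 0.695, 0.451 and 0.730 in knockout hearts and 0.618, 0.741 and 0.741 in wild type hearts. Here the groups overlapped, with the log2 fold change at -0.28 (SE 0.21, limma adjusted p = 0.31). It was -0.16 without Mutant_187 (limma adjusted p = 0.53) and 0.03 without both Mutant_175 and Mutant_187 (limma adjusted p = 0.85).

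The 3 MuRF genes were also set against each other within each array, a measure that a constant factor per array does not alter. The log2 difference between Trim63 and Trim54 was 0.26, 0.79, 0.77 and 0.32 in knockout hearts and -1.32, -1.40 and -1.37 in wild type hearts. It was above 0 in every knockout heart and below 0 in every wild type heart, although the zero point has no meaning across 2 probes. The groups differed by 1.90 (exact two-sided permutation p = 0.029, the smallest that 35 splits of the arrays can give, and 0.071 after Benjamini-Hochberg adjustment over 5 pairs). For Trim63 against Trim55 the groups differed by 0.93 (exact permutation p = 0.029, adjusted 0.071), and for Trim54 against Trim55 by -0.97 (exact permutation p = 0.057, adjusted 0.071). With quantile normalization, which is no constant factor, these were 1.15 for Trim63 and Trim55 and -0.76 for Trim54 and Trim55. None of the 5 pairs passed after adjustment.

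The 3 Trim63 probes did not give the same result. Probe A_55_P2106745, whose sequence is shown above, had relative signals of 19.3, 23.2, 28.8 and 18.7 in knockout hearts and 13.5, 13.9 and 14.2 in wild type hearts. Its change was close in size to that of the probe that represents the gene, at a log2 fold change of 0.68 (SE 0.17, limma adjusted p = 0.016 over probes). This call was lost without any 1 wild type array, at limma adjusted p = 0.054 without Wild Type_181 or Wild Type_183 and 0.0502 without Wild Type_189. Probe A_51_P115335 lies upstream of both, at chr4:133873219-133873278 in mm9, and is annotated to an Ensembl transcript instead of the RefSeq one. Its relative signals were 0.407, 0.306, 0.271 and 0.298 in knockout hearts and 0.569, 0.423 and 0.408 in wild type hearts. The groups did not overlap and the knockout arrays were the lower ones, with a log2 fold change of -0.54 that did not pass the test (SE 0.19, limma adjusted p = 0.051). Without Mutant_175 it was called, at -0.66 (limma adjusted p = 0.013 over probes), and without Wild Type_181 it was -0.39 (limma adjusted p = 0.17 over probes). With the mean over its probes in place of 1 probe, Trim63 had a log2 fold change of 0.26 and lost its call (limma adjusted p = 0.085).

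**Figure D2:**
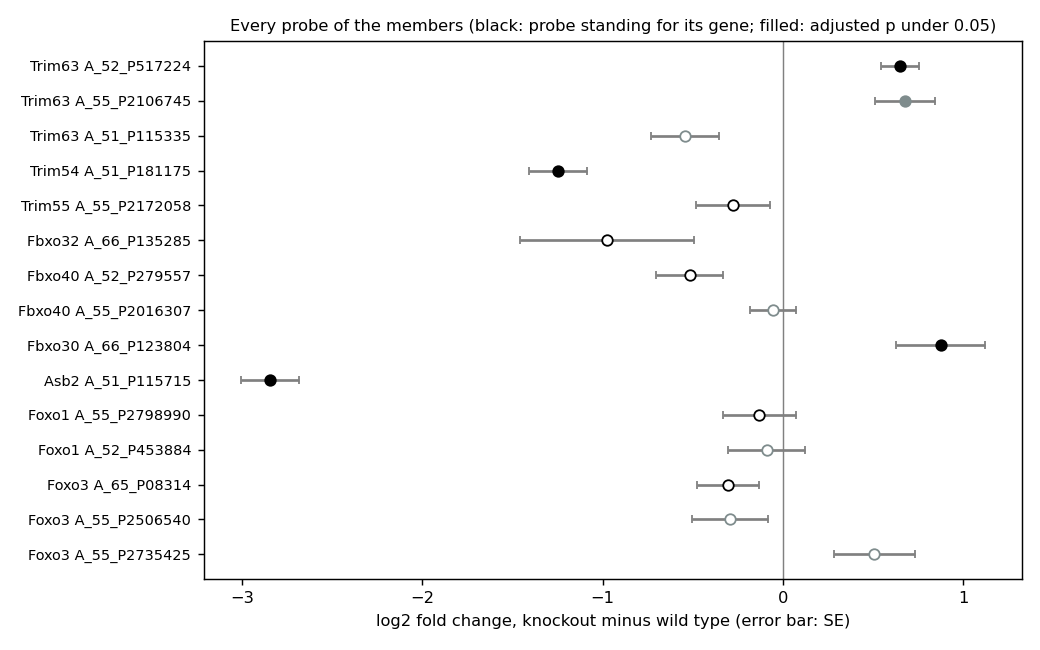
Log2 fold change, knockout minus wild type, with its SE, for each of the 15 probes; black points are the probes that represent their gene and filled points passed the test over all probes. Of the 3 Trim63 probes, 2 lie right of 0 and 1 left of it, and 1 Foxo3 probe lies right of 0 while the other 2 lie left.

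Counted by probe, 3 of the 15 were called higher and 2 lower, against 16.5% and 24% of all probes kept. Calls in either direction made up 40.5% of all probes kept. The groups did not overlap for 6 of the 15 probes, against 49.6% of all probes kept. Knockout hearts were the higher group for 3 of the 6 and the lower group for the other 3, against 20% and 29.6% of all probes kept.

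Fbxo32, Fbxo40 and Fbxo30 encode F-box proteins, which give a cullin-1 ligase its substrate. Fbxo32 (atrogin-1) had relative signals of 27.7, 10.9, 5.35 and 9.40 in knockout hearts and 21.2, 21.9 and 22.4 in wild type hearts. Mutant_175 lay above all wild type arrays and the other 3 knockout arrays lay below them, so the groups overlapped. The mean was 13.3 ± 9.88 in knockout hearts (SD, n = 4) and 21.8 ± 0.603 in wild type hearts (SD, n = 3). The log2 fold change was -0.98 (SE 0.49, limma adjusted p = 0.14), and without Mutant_175 it was -1.42 (limma adjusted p = 0.0052). Without Mutant_187, the lowest array, it was -0.62 (limma adjusted p = 0.25). With array weights, which count divergent arrays less, it was -1.11 (limma adjusted p = 0.0081).

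Set against Trim63, the other classical atrophy ligase, the log2 difference of Trim63 and Fbxo32 was 1.02, 2.42, 3.49 and 2.61 in knockout hearts and 0.78, 0.85 and 0.65 in wild type hearts. All knockout hearts were higher, Mutant_175 by the least and Mutant_187 by the most. The groups differed by 1.63 (exact two-sided permutation p = 0.057, adjusted 0.071).

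Fbxo40, whose product has IRS1 as its known substrate in muscle, had relative signals of 3.40, 2.60, 2.09 and 2.72 in knockout hearts and 4.23, 3.30 and 3.97 in wild type hearts. The knockout arrays were the lower ones except that Mutant_175 reached above the lowest wild type array. The log2 fold change was -0.52 (SE 0.18, limma adjusted p = 0.055), and without Mutant_175 it was -0.63 (limma adjusted p = 0.014). It was -0.40 without Mutant_187 (limma adjusted p = 0.087) and -0.44 without Wild Type_181 (limma adjusted p = 0.17). Its second probe, A_55_P2016307, had a log2 fold change of -0.06 (SE 0.13, limma adjusted p = 0.76 over probes).

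Fbxo30, which encodes a ligase induced in muscle that BMP signalling no longer protects (MUSA1), had relative signals of 1.77, 0.996, 0.864 and 1.04 in knockout hearts and 0.591, 0.563 and 0.689 in wild type hearts. Every knockout array was above every wild type array, with Mutant_175 apart from the other 3. Fbxo30 rose 1.83-fold, a log2 fold change of 0.88 (SE 0.25, limma adjusted p = 0.024). The call was lost when any 1 wild type array was left out, at limma adjusted p = 0.073 without Wild Type_181, 0.085 without Wild Type_183 and 0.0505 without Wild Type_189.

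Asb2 encodes the substrate-binding subunit of a cullin-5 ligase whose known substrates are filamins, the actin cross-linkers. It had relative signals of 8.99, 7.27, 5.96 and 6.56 in knockout hearts and 54.0, 46.8 and 52.4 in wild type hearts. The groups were far apart, with every knockout array far below the lowest wild type array. The mean was 7.19 ± 1.31 in knockout hearts (SD, n = 4) and 51.1 ± 3.75 in wild type hearts (SD, n = 3). Asb2 fell by 2.84 on the log2 scale (SE 0.16, limma adjusted p = 3.3e-05), a 7.17-fold lower signal in knockout hearts. This size of change was larger than that of 97.8% of all genes tested. In bulk hearts, fewer cells of a type and less RNA per cell cannot be told apart, and this holds for each gene described here.

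Foxo1 and Foxo3 encode forkhead factors that turn on the atrophy ligases and genes of autophagy. Foxo1 had relative signals of 6.49, 4.16, 3.82 and 3.87 in knockout hearts and 4.70, 4.82 and 5.19 in wild type hearts. Mutant_175 was above all wild type arrays and the other 3 knockout arrays were below them, as for Fbxo32. The log2 fold change was -0.13 (SE 0.20, limma adjusted p = 0.63), and without Mutant_175 it was -0.31 (limma adjusted p = 0.038). It was -0.06 both without Mutant_187 (limma adjusted p = 0.85) and without Mutant_188 (limma adjusted p = 0.84). The second Foxo1 probe, A_52_P453884, had a log2 fold change of -0.09 (limma adjusted p = 0.76 over probes), also with Mutant_175 as its highest array.

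Foxo3 had relative signals of 5.63, 4.27, 3.44 and 4.76 in knockout hearts and 5.27, 5.53 and 5.71 in wild type hearts. Mutant_175 lay among the wild type arrays and the others below them. The log2 fold change was -0.30 (SE 0.17, limma adjusted p = 0.19), and without Mutant_175 it was -0.42 (limma adjusted p = 0.049). Without Mutant_187 it was -0.18 (limma adjusted p = 0.32). Of the other Foxo3 probes, A_55_P2506540 had a log2 fold change of -0.29 (limma adjusted p = 0.30 over probes). Probe A_55_P2735425 had relative signals of 0.294, 0.197, 0.148 and 0.233 in knockout hearts and 0.148, 0.147 and 0.151 in wild type hearts. Its highest 3 arrays were knockout ones, with Mutant_187 level with the wild type, and the log2 fold change of 0.51 did not pass the test (SE 0.22, limma adjusted p = 0.11 over probes). Without Mutant_187 it was called higher, at 0.68 (limma adjusted p = 0.019 over probes). Leaving out any other 1 array gave no call, and without Mutant_175 it was 0.35 (limma adjusted p = 0.15 over probes). Within arrays, the log2 difference of Foxo1 and Foxo3 differed by 0.17 between the groups (exact two-sided permutation p = 0.286, adjusted 0.286).

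The same arrays were often at the extremes of the knockout group, while Mutant_182 and Mutant_188 had no fixed place. Mutant_175 was the highest of the 4 for 7 of the 9 genes, and over all genes tested it was the highest for 36.3%. Mutant_187 was the lowest for 7 of the 9, against 35.4% of all genes tested. By the probe that represents it, Trim63 ran the other way, with Mutant_175 lowest and Mutant_187 highest. This probe had the smallest spread among knockout hearts of those that represent the 9 genes, a log2 SD of 0.044. Trim63 probe A_55_P2106745 had a log2 SD of 0.28 and was lowest in Mutant_188. Trim63 probe A_51_P115335 was highest in Mutant_175 and lowest in Mutant_187, so the probes did not share 1 order. The brightest Smarca4 probe ran the same way as the probe that represents Trim63, lowest in Mutant_175 and highest in Mutant_187. Smarca4 probe A_55_P2154690 had the same lowest and highest knockout arrays, at a log2 fold change of -1.91 (limma adjusted p = 0.0017 over probes). It was well above background on 4 knockout and 3 wild type arrays. Smarca4 probe A_65_P20042 was lowest in Mutant_188, at signals not well above background in knockout hearts. The part of residual Smarca4 in these differences among 4 arrays was not tested.

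**Figure D3:**
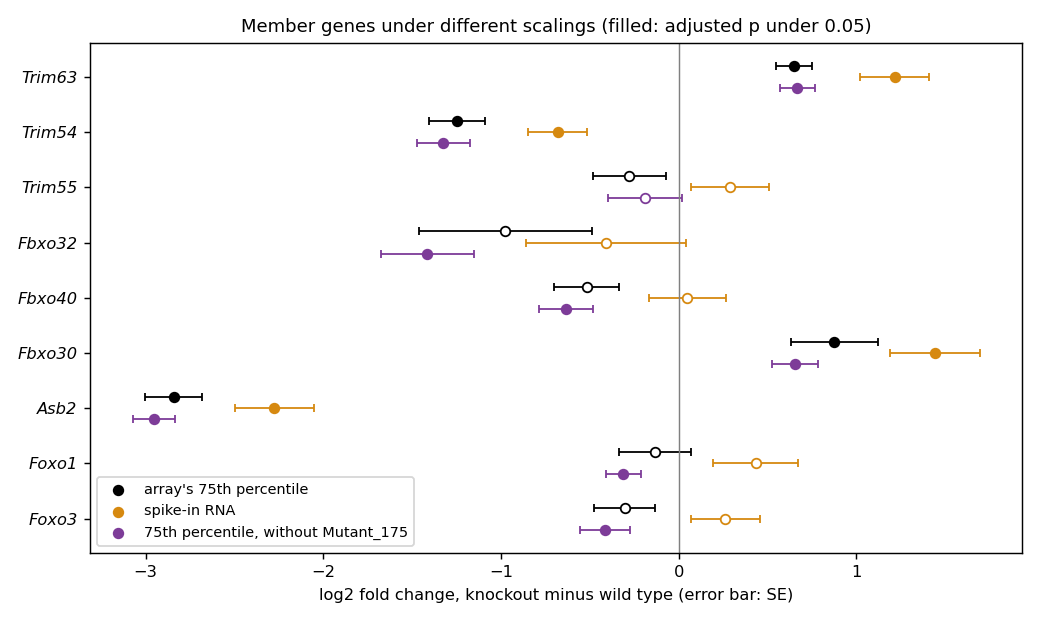
Log2 fold change, knockout minus wild type, with its SE, for the 9 genes after scaling to each array's 75th percentile (black), to spike-in RNA (orange), or to the percentile without Mutant_175 (purple); filled points passed the test. Trim63, Trim54, Fbxo30 and Asb2 are called under all 3, and Trim55, Fbxo40, Foxo1 and Foxo3 lie right of 0 with spike-in scaling, without a call.

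Scaling to the percentile cannot show a change in total messenger RNA per heart sample, and the choice of scale moved all values. Relative to 7 spike-in probes, the median log2 fold change of all genes was 0.44 in place of -0.12, and 83.3% of the called genes were higher in place of 38.7%. With that scale Trim63 (1.22, adjusted p = 0.0013) and Fbxo30 (1.44, 0.0022) were still called higher by limma, and Trim54 (-0.68, 0.010) and Asb2 (-2.28, 1.1e-04) lower. Trim55 (0.29), Fbxo40 (0.05), Foxo1 (0.43) and Foxo3 (0.26) changed sign without a call, and Fbxo32 stood at -0.41 (limma adjusted p = 0.47). Further probes of these genes were called higher on that scale, Foxo3 probe A_55_P2735425 at 1.07 (limma adjusted p = 0.0046) and Fbxo40 probe A_55_P2016307 at 0.51 (limma adjusted p = 0.049). Trim63 probe A_51_P115335, lower in knockout hearts by the percentile, stood at 0.02 on that scale (limma adjusted p = 0.94). No Trim63 or Foxo3 probe was then below 0, so their difference in direction depended on the scale.

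Genes that act with these members were described by lists, by count and median and with no test of the list. Counts of these lists and of the cell type markers stand beside the shares over all genes tested. Those were 16.3% called higher, 25.8% lower and 42.1% in either direction. On the spike-in scale, 8538 of 22971 genes were called higher and 1710 lower. A count near these shares is no result about its list. The closest relatives, Foxo4 and Foxo6, both fell, at log2 fold changes of -0.79 (SE 0.14, limma adjusted p = 0.0041) and -2.08 (SE 0.14, limma adjusted p = 6.0e-05). Foxo6, a family member that stays largely nuclear, had relative signals of 1.02, 0.938, 0.931 and 0.779 in knockout hearts and 4.03, 4.16 and 3.41 in wild type hearts. The arrays of the 2 groups were far apart. With spike-in scaling Foxo4 stood at -0.22 and was not called (limma adjusted p = 0.30), and Foxo6 stayed called at -1.51.

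Of 13 genes of the insulin and IGF route to FoxO, 3 rose, 3 fell and 7 did not pass, with a median log2 fold change of -0.12. On the spike-in scale 5 were called higher and 1 lower, with a median of 0.44. Igf1r, the IGF1 receptor, rose to relative signals of 4.56, 3.60, 3.72 and 3.59 in knockout hearts, against 1.447, 1.079 and 1.498 in wild type hearts. Its log2 fold change was 1.54 (SE 0.16, limma adjusted p = 0.00036), and its other 3 probes were called higher too. Of these, A_52_P668647 was well above background on 4 knockout arrays and on 1 wild type array. It passed the filter on dim probes through the knockout arrays, so its call is no separate evidence. Irs2, an adaptor of both receptors, rose by 0.93 on the log2 scale (SE 0.18, limma adjusted p = 0.0059). Irs2 also stands in the list of FoxO target genes below, and its rise is counted in both lists. Pik3ca, a catalytic subunit of PI3-kinase, had relative signals of 3.08, 5.10, 3.60 and 4.16 in knockout hearts and 18.8, 30.9 and 42.4 in wild type hearts. It fell by 2.89 on the log2 scale (SE 0.29, limma adjusted p = 0.00032), with a wide spread among the wild type arrays.

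Among 18 FoxO target genes other than ligases, 2 rose and 6 fell, with a median of -0.26, against 42.1% of all genes called. The antioxidant enzyme gene Sod2 had relative signals of 11.63, 10.67, 12.40 and 13.73 in knockout hearts and 38.4, 38.0 and 38.4 in wild type hearts. It fell by 1.67 on the log2 scale (SE 0.12, limma adjusted p = 8.3e-05). Gadd45a, a stress response gene, fell by 1.45 (SE 0.20, limma adjusted p = 0.0011), and Sesn3, a sestrin that restrains mTORC1, by 0.78 (SE 0.14, limma adjusted p = 0.0042). On the spike-in scale 4 of the list were called higher and 2 lower, the lower ones being Sod2 and Gadd45a. The median of the list was then 0.30.

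Of 18 other regulators of the atrophy ligases, 16 were tested, of which 4 rose and 5 fell, with a median of -0.15, while on the spike-in scale 4 were called higher and 2 lower, with a median of 0.42. Tnfrsf12a, the TWEAK receptor, had relative signals of 55.7, 64.2, 75.3 and 71.6 in knockout hearts and 11.1, 8.54 and 12.2 in wild type hearts. The knockout arrays were all far above the wild type arrays, and the gene rose by 2.66 on the log2 scale (SE 0.17, limma adjusted p = 4.9e-05). Klf15, a glucocorticoid-responsive factor that acts on both atrophy ligases, fell by 1.66 (SE 0.31, limma adjusted p = 0.0048), and Acvr2b, a myostatin receptor, by 1.23 (SE 0.16, limma adjusted p = 0.0010).

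The shared machinery was described in the same way. Of 11 partners of cullin-RING ligases, 1 rose and 4 fell, with a median of -0.10. On the spike-in scale 5 were called higher and 0 lower, with a median of 0.47. Skp1, the adaptor that joins F-box proteins to cullin-1, had a log2 fold change of -0.81 (limma adjusted p = 0.0028), and the cullin exchange factor gene Cand1 one of 0.71 (limma adjusted p = 0.0033). Cul5, the scaffold for Asb2, had a log2 fold change of -0.75 (limma adjusted p = 0.00096), while its other 2 probes stood at -0.28 and 0.30 without a call. One other Cand1 probe was called at 0.90 and another stood at -0.08 without a call. Of 8 ubiquitin-conjugating enzymes that work with MuRF proteins, 1 rose and 1 fell, with a median of -0.01, while on the spike-in scale 5 were called higher and 0 lower, with a median of 0.56. These were Ube2l3 at 0.74 (limma adjusted p = 0.012) and Ube2d1 at -0.66 (limma adjusted p = 0.0024), and Ube2e1 stood at -0.41 without a call (limma adjusted p = 0.12). With spike-in scaling Skp1, Cul5 and Ube2d1 lost their calls, at -0.24, -0.19 and -0.10, and Ube2e1 stood at 0.15.

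Of 16 other ubiquitin ligases of striated muscle, 0 rose, 7 fell and 9 did not pass (limma), with a median of -0.42. At an unadjusted p under 0.05, 1 was higher and 7 lower. On the spike-in scale 5 were called higher and 2 lower, with a median of 0.15. Fbxl22, an F-box ligase of the Z-disc, had relative signals of 2.32, 1.87, 1.44 and 1.83 in knockout hearts and 13.9, 12.6 and 12.4 in wild type hearts. It fell by 2.82 on the log2 scale (SE 0.17, limma adjusted p = 4.2e-05), close in size to Asb2. Klhl31 had a log2 fold change of -1.06 (limma adjusted p = 0.00058) and Stub1, the gene of the chaperone-linked ligase CHIP, one of -0.67 (limma adjusted p = 0.0051). Neither was called with spike-in scaling, at -0.50 and -0.11.

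The other Asb genes encode relatives of Asb2 with the same domain plan. Of 17, 15 were tested, and of these 0 rose, 8 fell and 7 did not pass (limma), with a median of -0.62. At an unadjusted p under 0.05, 0 were higher and 9 lower. On the spike-in scale their median was -0.05, with 4 called higher and 5 lower. Asb14 had relative signals of 0.439, 0.300, 0.264 and 0.424 in knockout hearts and 9.066, 8.204 and 8.701 in wild type hearts. It fell by 4.63 on the log2 scale (SE 0.20, limma adjusted p = 1.5e-05). Asb12 fell by 2.34 (SE 0.11, limma adjusted p = 1.8e-05). Asb15 was well above background on 0 of the 4 knockout arrays and on all 3 wild type arrays, with mean relative signals of 0.00731 in knockout hearts and 0.113 in wild type hearts. It passed the filter on dim probes through the wild type arrays alone, so its place among the 8 is no separate evidence. It was at least 3.50-fold lower in knockout hearts, a bound set on each array by the lowest signal well above background.

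Among substrates and partners of the member ligases, 13 of 14 were tested, of which 1 rose and 4 fell, with a median of -0.26. The split turned on the spike-in scale, where 4 were called higher and 3 lower, with a median of 0.31. Flnc, the muscle filamin, had relative signals of 264.0, 327.2, 315.2 and 368.0 in knockout hearts and 34.5, 32.6 and 31.6 in wild type hearts. It rose by 3.27 on the log2 scale (SE 0.14, limma adjusted p = 1.3e-05). Flna, a filamin gene expressed beyond muscle, stood at 0.85 without a call (limma adjusted p = 0.051), and on the spike-in scale was called higher at 1.41 (limma adjusted p = 0.012). Ckm, the gene of muscle creatine kinase, which MuRF1 binds, had relative signals of 6.39, 3.72, 5.73 and 5.98 in knockout hearts and 107.2, 110.9 and 107.2 in wild type hearts. It fell by 4.34 (SE 0.20, limma adjusted p = 1.7e-05). Mybpc3, which encodes myosin-binding protein C of the heart, had a log2 fold change of -2.47 (SE 0.13, limma adjusted p = 3.0e-05).

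**Figure D4:**
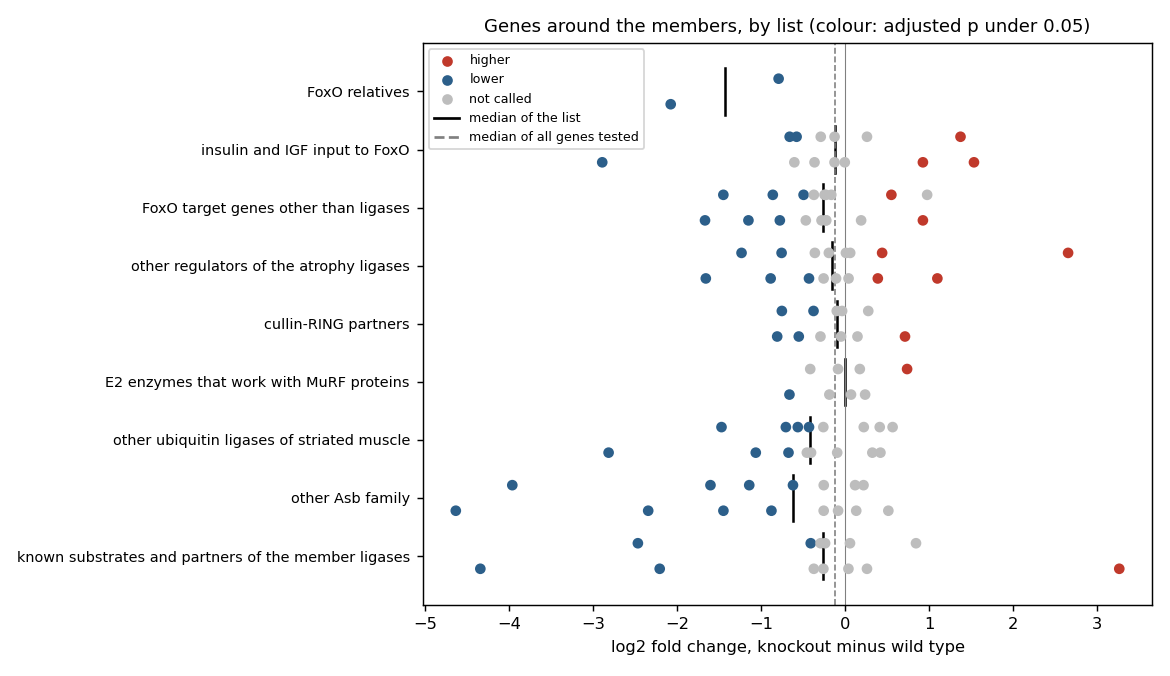
Log2 fold change, knockout minus wild type, of each tested gene in 9 lists around the members; red points were called higher, blue lower and grey not called, with the median of each list in black and that of all genes (-0.12) dashed. The other Asb family has 8 blue and 0 red points, and Flnc is the red point at 3.27.

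Markers of cell types moved between the groups as well. Of 8 cardiomyocyte markers 0 rose and 6 fell, by limma at adjusted and unadjusted p alike, and their summed relative signal was 1886 to 2454 in knockout hearts and 3673 to 4065 in wild type hearts. With spike-in scaling 2 of the 8 were called lower, Tnni3 and Pln, and Tnnt2, Actn2 and Ttn stood above 0. All 6 fibroblast markers rose, with sums of 521 to 653 in knockout hearts and 280 to 307 in wild type hearts. Of 4 smooth muscle markers 1 rose, Acta2, with sums of 397 to 494 in knockout hearts and 52.1 to 64.1 in wild type hearts. Most of this sum was Acta2, and the other 3 markers summed to 16.5 to 53.2 in knockout hearts and 18.4 to 24.4 in wild type hearts. Of 6 macrophage markers 3 rose and the sums overlapped, at 66.1 to 106.8 in knockout hearts and 69.1 to 73.3 in wild type hearts. Of 5 endothelial markers 1 rose and 1 fell, Vwf and Tek, with sums of 44.0 to 63.4 in knockout hearts and 37.4 to 38.0 in wild type hearts. Without Vwf the other 4 summed to 18.9 to 28.2 in knockout hearts and 25.2 to 26.4 in wild type hearts. Of 8 skeletal muscle markers 4 were tested, and Myh1, Myh2, Myod1 and Pax7 did not pass the filter on dim probes. By limma 0 rose and 2 fell, and at an unadjusted p under 0.05, 2 were higher and 2 lower. On the spike-in scale 2 were called higher and 0 lower. Their sums were 0.867 to 2.81 in knockout hearts and 2.02 to 2.43 in wild type hearts. The part of these shifts in the values of the 9 genes was not tested.

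For each member the genes nearest in pattern were found by the root mean square difference of their log2 values over the 7 arrays after centring, among 15505 genes. Asb2 was nearest to Fbxl22 (0.075) and Atp2a1 (0.11), Trim54 to Osbp2 (0.034) and Etnppl (0.067), and Trim63 to Lrp12 (0.049) and Zmat3 (0.052). Fbxo32, with the widest spread among knockout hearts, was nearest to Myzap (0.12) and Ppip5k2 (0.16). Fbxo30 was nearest to Chmp4c (0.089) and Prrg3 (0.095), Fbxo40 to Cwf19l2 (0.064) and Zfp641 (0.074), and Trim55 to Vps33a (0.070) and Adam23 (0.081). Foxo1 was nearest to Pus3 (0.058) and Cul3 (0.061), and Foxo3 to Olfr229 (0.047) and Ccndbp1 (0.048). The 7 arrays hold 2 groups, so genes with a like difference between the groups are near by this measure.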

How the data were processed

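Total RNA of 7 heart samples, 4 knockout and 3 wild type, was labelled with Cy3 and hybridised to 1-colour mouse arrays, per the labels' protocols. The arrays were read with Agilent Feature Extraction 10.7.3.1, per the file headers, and its processed signal, a linear intensity with background subtracted by the software, was analysed. The other deposited columns used hold flags, probe names, accessions, probe sequences and mm9 positions. A value table that the authors deposited held the same intensity, rounded and neither scaled between arrays nor centred, with 99.6% of its cells within 0.01 log2 of the scanner value. It had column medians of 65.5, 83.3, 80.9 and 61.1 on the knockout arrays and 47.7, 45.9 and 50.8 on the wild type arrays, and served as an alternative only.

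Of 59305 non-control spots per array, 82 to 146 were outliers and left out, and 0 were saturated. Between 58.1% and 63.6% of spots were well above background. Spots of a probe were averaged, and log2 of the signal minus the array's 75th percentile was used. Of 56605 probes, 34481 were kept, those well above background on 3 or more arrays. The kept probe brightest on average stood for its gene. Genes were named through the probe's accession in a RefSeq table (GRCm38.p6, 49997 genes), which matched 32994 probes and renamed 1535. Tests used limma 3.58.1 (lmFit, eBayes) in R 4.3.3, without covariates, with Benjamini-Hochberg adjustment over all genes, or over all kept probes for probe results, and a threshold of 0.05. The steps were tested on simulated data. Pairs of members were compared by exact permutation of the arrays. Precision is limited by the number of arrays. Tables were read with data.table (version 1.17.8) and figures drawn in matplotlib 3.10.9.

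The members and the gene lists were chosen with earlier results of these data known. Named genes are the 9 members, up to 3 genes of smallest p from each list (2 where none was called), and for each member its 2 nearest patterns, leaving out predicted genes and clone names. The targeted genes Smarca4 and Smarca2 are named too. Further genes were chosen after their values were seen, Flna, Tnni3, Pln, Tnnt2, Actn2, Ttn, Acta2, Vwf and Tek. A total of 19 alternative settings was run, on scaling, background correction, filter, probe choice, prior, array weights, the deposited value table and arrays left out.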

Additional observations from a re-analysis of the deposited data

Results flagged for a closer look

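Foxo1 in Mutant_175 stood apart from the other knockout arrays. Its log2 signal relative to the 75th percentile was 2.70, and the gap to the nearest of the other 3 took up 0.838 of the range of the 4 knockout arrays. The 9 members were examined this way among the 4 knockout arrays, and chance marks about 1 in 20 such groups. Fbxo32 and Fbxo30 were also highest in Mutant_175 without meeting that limit.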

How the results depend on the processing

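Over 19 alternatives, Asb2 (-2.95 to -2.28) and Trim54 (-1.32 to -0.68) were called lower in all, Trim63 (0.26 to 1.22) higher in 18 and Fbxo30 (0.66 to 1.44) in 16, with no call reversed. Fbxo40 was called lower in 6, Fbxo32 in 3, Foxo3 in 2, Foxo1 in 1 and Trim55 in 0. With spike-in scaling 8538 of all genes were higher and 1710 lower, against 3749 and 5932, and 5 member probes were higher. The higher share of calls was 38.7% as reported, 45.0% with quantile normalization, 45.4% with normexp and quantile normalization and 49.5% with the percentile of probes above background on all arrays. Of the 15 member probes, 4 were called lower with normexp and quantile normalization, 4 with the filter on all 7 arrays and 4 with a trended prior. In the same order, 5267 of 22971, 5382 of 19930 and 6036 of 22971 genes tested were lower. As reported, 24% of all probes kept were called lower. Averaging each gene's probes left 1 member gene higher, Fbxo30. Array weights gave 5 member genes and 5 member probes lower, while 7305 of the 22971 genes tested were lower, against 5932 as reported. Without Mutant_175 and Mutant_187 together, 4 member genes and 5 member probes were lower, as were 6458 of the 22971 genes tested. The difference for Trim63 and Trim55 was then 0.62. Leaving out 1 array at a time gave 2645 to 4529 genes higher and 4087 to 6775 lower, 1 to 2 member genes higher and 2 to 6 lower, and 1 to 4 member probes higher and 2 to 6 lower. The highest count of member genes lower was without Mutant_175, where Fbxo32, Fbxo40, Foxo1 and Foxo3 were called, and the lowest count higher was without any 1 wild type array, where Fbxo30 was lost. Over the same fits the pair differences were 1.81 to 1.99 for Trim63 and Trim54, 0.79 to 1.05 for Trim63 and Trim55, -1.13 to -0.80 for Trim54 and Trim55, 1.26 to 2.08 for Trim63 and Fbxo32, and 0.10 to 0.27 for Foxo1 and Foxo3. The causes of these shifts were not tested. No paired analysis was possible because no samples of different groups share a replicate number.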
